A study of Mus musculus with 19 samples.

Results

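The 33 genes described here take glucose into the cell, break it down to pyruvate and lactate, or belong to the hypoxia-inducible factor (HIF) pathway and its targets. They were listed by function and matched by mouse symbol. All 33 were found among the 33919 gene identifiers of the deposited table, and 32 of them passed the filter on low values (14875 genes passed in all). By role they were 5 carriers of glucose or lactate, 14 enzymes of glycolysis, 3 genes that set the fate of pyruvate and lactate, 2 regulators of phosphofructokinase, 3 genes of oxygen sensing and 6 further HIF targets. Egln3 was the member that did not pass, because it reached 10 normalised reads in fewer than 6 libraries.

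Kupffer cells are the resident macrophages of the liver. The libraries came from Kupffer cells of female wild-type C57BL/6 mice, isolated by collagenase digestion of the liver and flow sorting, with Smartseq amplification of the mRNA. Chow_EmKCs (6 libraries) were CLEC2+ TIMD4+ cells from mice on chow, MCD_EmKCs (6 libraries) were cells of the same gate after 4 weeks of the MCD diet, and MCD_MoKCs (7 libraries) were CLEC2+ TIMD4- cells after the same diet. An MCD diet lacks methionine and choline and is used as a model of steatohepatitis in mice. The names stand for embryo-derived and monocyte-derived Kupffer cells. Origin was assigned by the TIMD4 gate, so a recruited cell that had gained TIMD4 would fall among the EmKCs, and no group held MoKCs from chow-fed mice. The labels do not say whether each library came from a separate mouse, so p-values measure the spread between libraries, which may be technical in part.

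Glycolysis splits glucose into pyruvate in a chain of enzymes that starts with hexokinase and ends with pyruvate kinase. Lactate dehydrogenase then converts pyruvate to lactate, or back, and monocarboxylate carriers move lactate across the membrane. HIF-1 is held low in oxygen by prolyl hydroxylases of the Egln family. When it accumulates it raises many glycolytic genes, and macrophages can also stabilise it during inflammatory activation.

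The table held recovered totals of 11642240 to 30983487 reads per library. All 10 Kupffer cell and macrophage markers were detected in every group, with a summed level of 493692 to 600061 normalised reads in Chow_EmKCs, 431853 to 486238 in MCD_EmKCs and 174419 to 235845 in MCD_MoKCs. Other features of the libraries moved with the groups. The mitochondrial share of reads was 0.511% to 1.05% in Chow_EmKCs, 0.155% to 0.317% in MCD_EmKCs, 0.534% to 0.729% in MCD_MoKCs 1 to 3 and 0.244% to 0.359% in MCD_MoKCs 4 to 7. The summed level of 12 hepatocyte markers was 5534 to 14077 in Chow_EmKCs, 722 to 3453 in MCD_EmKCs and 549.9 to 1398 in MCD_MoKCs. The summed level of 8 monocyte markers was 1853 to 3039, 1203 to 1625 and 4452 to 5833 in the same order of groups. Of the 7 that were tested, limma (adjusted p under 0.05) called Ccr2 higher and Plac8 lower in MCD_EmKCs against Chow_EmKCs. In MCD_MoKCs, 5 were higher and 0 lower against MCD_EmKCs, and 4 were higher and 1 (Plac8) lower against Chow_EmKCs. In bulk libraries, fewer cells of a type and less RNA per cell cannot be told apart.

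Ldha, Ldhb and Adm are shown first as sequence. They were picked for their differences in MCD_MoKCs, where Ldha and Ldhb were higher and Adm was lower. Their windows are therefore not read as a link between a core and a direction. HIF binds a short core, ACGTG or GCGTG. A window of 150 bases before a RefSeq start site (GRCm38.p6) was read for each gene, and letters in capitals mark every match to either core on either strand. The windows are chr7:46845654-46845803 (plus strand, the first of 2 starts listed) for Ldha, chr6:142507958-142508107 (minus strand) for Ldhb and chr7:110627507-110627656 (plus strand) for Adm.
Ldha: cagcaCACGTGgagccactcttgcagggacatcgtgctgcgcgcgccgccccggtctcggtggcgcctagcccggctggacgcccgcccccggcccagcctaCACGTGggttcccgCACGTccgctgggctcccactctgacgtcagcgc
Ldhb: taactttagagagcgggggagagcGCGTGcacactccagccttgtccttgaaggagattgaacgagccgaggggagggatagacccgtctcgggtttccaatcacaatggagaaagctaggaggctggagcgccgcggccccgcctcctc
Adm: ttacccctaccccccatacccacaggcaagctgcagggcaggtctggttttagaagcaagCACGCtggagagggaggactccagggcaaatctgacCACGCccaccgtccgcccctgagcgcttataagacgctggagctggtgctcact
The Ldha window held 5 matches in 3 stretches, and 2 of those stretches read CACGTG, which matches on both strands and is also the E-box core. The Ldhb window held 1 match and the Adm window held 2. A promoter was listed for 30 of the 33 members (none for Bnip3l, Ndrg1 and Slc2a3), and 28 of the 30 held a core within 250 bases before at least 1 start. Over all genes of the promoter table the share was 41.5% (11226 of 27025). The members were listed partly as HIF targets and the genes of the promoter table were not matched to them, so these shares are not read as an enrichment. A match is a stretch of letters and was not tested as a binding site. Gpi1, also higher in MCD_MoKCs, held 0 matches within 250 bases before its listed start. Pkm, higher too, held 0 before its first listed start and 1 before its second.

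The first question was what the diet did to these genes in embryo-derived Kupffer cells. No member passed limma's threshold (adjusted p under 0.05) in MCD_EmKCs against Chow_EmKCs, in either direction, among 32 tested. Of all genes tested, 2.50% were higher and 1.58% were lower. edgeR and DESeq2 also called 0 members, beside 554 and 904 genes in all. Before adjustment 3 members had a limma p under 0.05, and all 3 had lower means on the diet: Hk3, Eno1 and Ldhb. The share of all genes under that unadjusted p is not given here, so this count is not read as a result about the members. The median log2 fold change of the 32 members was -0.01, beside -0.04 for all genes.

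For the abundant enzymes the interval of this difference was narrow. Ldha, the main lactate dehydrogenase subunit, had 4357, 5687 and 6389 normalised reads (lowest, median and highest) in Chow_EmKCs and 4833, 5457 and 6497 in MCD_EmKCs. The 2 groups overlapped almost fully, and the log2 fold change was -0.01 with a 95% interval of -0.27 to 0.25. Pkm, the pyruvate kinase gene, had an interval of -0.04 to 0.46, and Aldoa, the main aldolase gene, had -0.28 to 0.32. In 9 of the 32 members, Hk2, Gpi1, Pfkp, Aldoa, Tpi1, Pkm, Ldha, Pfkfb4 and P4ha1, the unadjusted 95% interval stayed within a 1.5-fold change either way, and in 18 of 32 it stayed within a 2-fold change. Hk3 (-0.62 to -0.10) and Eno1 (-0.70 to -0.03) met only the wider bound, with intervals that lay below 0. Among the members outside both bounds were some with wide intervals, as in Slc16a1 (-0.62 to 3.82), Ndrg1 (-0.27 to 3.52) and Egln1 (-0.44 to 3.49). Ldhb was outside both too, at -2.21 to -0.02.

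The second question was how monocyte-derived cells differed from embryo-derived cells on the same diet. In MCD_MoKCs against MCD_EmKCs, limma called 5 members higher (Gpi1, Eno1, Pkm, Ldha and Ldhb) and 2 lower (Hk3 and Adm) of 32, where 5.64% of all genes were higher and 4.90% lower. The median log2 fold change of the members was 0.26, beside 0.02 for all genes. In the third comparison, MCD_MoKCs against Chow_EmKCs, which changes subset and diet together, 8 members were higher (Slc2a1, Slc16a1, Gpi1, Pgam1, Pkm, Ldha, Ldhb and Ndrg1) and 4 were lower (Slc2a3, Hk3, P4ha1 and Adm). There 8.68% of all genes were higher and 8.08% lower, and the medians were 0.26 for the members and -0.01 for all genes. These 2 comparisons share the MCD_MoKCs libraries, so their values are set side by side and neither supports the other. Each label carries a library number after the group name, and the numbers fall into a set up to 33 (3, 3 and 5 libraries) and a set from 37 (3, 3 and 2). With these fewer libraries, MCD_MoKCs against MCD_EmKCs had 2 members higher and 1 lower in the first set. There 474 of all 14875 genes tested were higher and 396 lower. The second set had 3 members higher and 1 lower, beside 262 of all 14875 genes higher and 303 lower. All 7 differences called over all libraries kept their sign in both sets. In the second set the members called higher included Slc2a1, which was not called over all libraries.

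**Figure D1:**
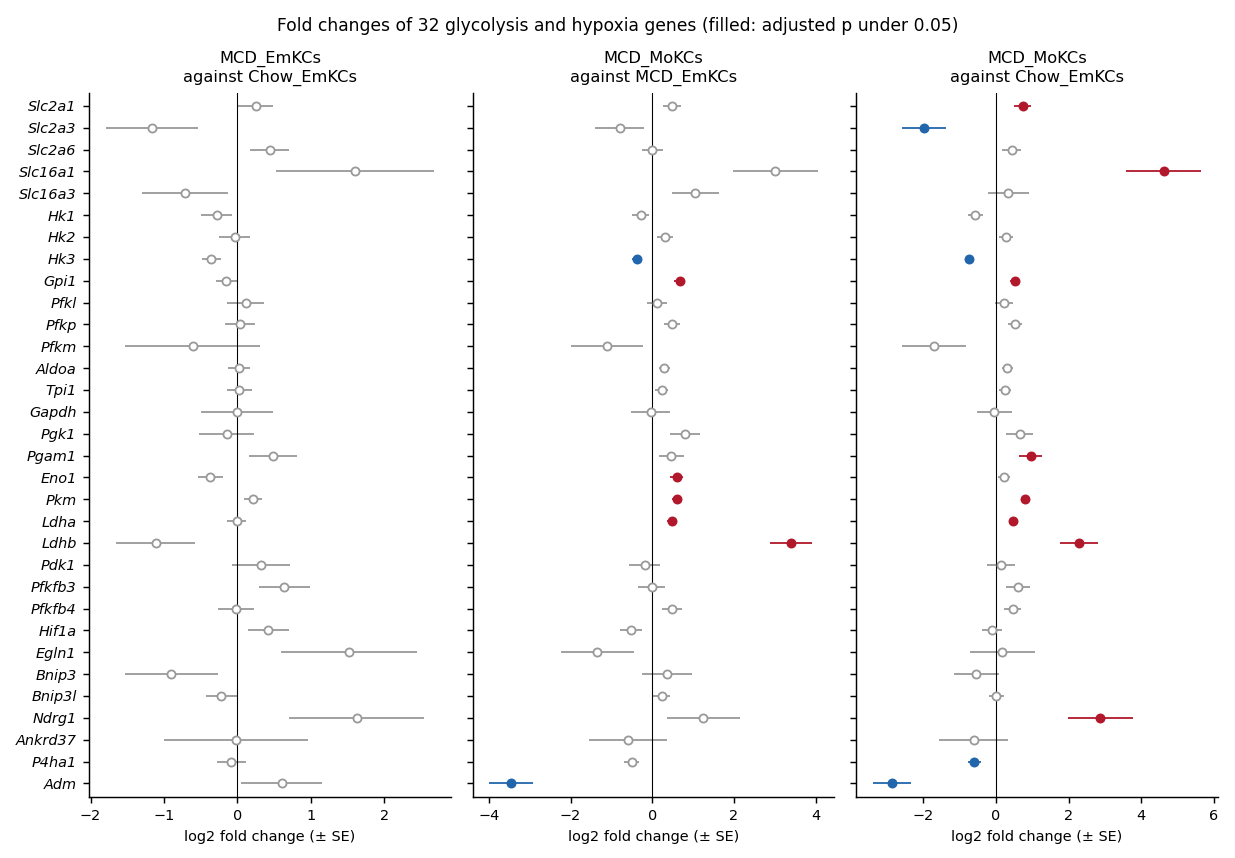
Log2 fold change with its standard error for the 32 members tested, in the 3 comparisons (horizontal axes differ in range). Filled red points are called higher and filled blue points lower by limma (adjusted p under 0.05). No point is filled for diet alone, while Ldhb and Adm stand furthest from 0 among the calls of MCD_MoKCs against MCD_EmKCs.

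Among the glucose carriers, Slc2a1, the widely expressed GLUT1, had 460.3, 594.2 and 837.9 normalised reads (lowest, median, highest) in Chow_EmKCs, 448.0, 698.3 and 1225 in MCD_EmKCs and 677.9, 1030 and 1311 in MCD_MoKCs. Its antisense neighbour Gm12868 overlaps it and had means of 294.0 ± 83.3, 369.8 ± 160.0 and 544.7 ± 157.6 in that order. The groups overlapped in every pair, and the call of Slc2a1 against Chow_EmKCs (log2 fold change 0.73, SE 0.23, limma adjusted p = 0.0280) was lost without any 1 of Chow_EmKCs 3, 4 or 6 or MCD_MoKCs 1, 6 or 7 (highest adjusted p = 0.0709), and without MCD_MoKCs 1 to 3 together (0.75, adjusted p = 0.0844). Among library numbers up to 33 that difference was 0.49 (adjusted p = 0.346). Against MCD_EmKCs the difference was 0.48 over all libraries (SE 0.23, adjusted p = 0.207) and 1.31 among numbers from 37, where it was called (adjusted p = 0.0241). Slc2a3, the high-affinity carrier GLUT3, went the other way. It had 77.6, 219.8 and 357.2 reads in Chow_EmKCs, 17.1, 97.3 and 252.5 in MCD_EmKCs and 15.4, 42.7 and 117.0 in MCD_MoKCs. Its fall by 1.97 on the log2 scale (SE 0.60, limma adjusted p = 0.0233) against Chow_EmKCs was lost without any 1 of Chow_EmKCs 1, 4 or 6 or MCD_MoKCs 2 (highest adjusted p = 0.0647). Per kb of exon, Slc2a3 made up 8.63% ± 5.06 (SD) of the summed level of Slc2a1, Slc2a3 and Slc2a6 in the 6 Chow_EmKCs libraries. The share was 4.44% ± 3.95 in the 6 MCD_EmKCs libraries and 1.48% ± 0.773 in the 7 MCD_MoKCs libraries. Slc2a6, a carrier found on lysosomes of macrophages, was not called in any comparison and held 41.5% to 48.1% of the same sum on average.

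Slc16a1 encodes MCT1, which moves lactate and other short acids in both directions, and Slc16a3 encodes MCT4, known for lactate export. Slc16a1 was nearly silent in most Chow_EmKCs, at 0, 5.46 and 141.7 normalised reads (lowest, median, highest), with 0.974, 63.2 and 226.7 in MCD_EmKCs and 89.7, 221.2 and 546.4 in MCD_MoKCs. Every MCD_MoKCs library was above 5 of the 6 Chow_EmKCs libraries, and Chow_EmKCs 3 alone reached into their range. Against Chow_EmKCs the mean was 8.81 times as high, or 27.1 times without Chow_EmKCs 3, and the log2 fold change on the scale of the value plus 1 was 4.62 (SE 1.04, limma adjusted p = 0.00220). edgeR gave 3.14 and an adjusted p of 0.0587. Against MCD_EmKCs the log2 fold change of 3.02 (SE 1.04) missed the threshold with a limma adjusted p of 0.0641, and passed it without MCD_EmKCs 3 (adjusted p = 0.0267), without Chow_EmKCs 1 (0.0465) or without Chow_EmKCs 3 (0.0400). Slc16a3 was not called, with means of 196.0 ± 140 (SD, n = 6), 131.9 ± 93.2 (n = 6) and 219.4 ± 117 (n = 7). The share of Slc16a1 in the summed level per kb of both carriers was 11.4% ± 14.1 in Chow_EmKCs, 38.7% ± 34.3 in MCD_EmKCs and 58.7% ± 17.6 in MCD_MoKCs, with overlapping ranges.

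Among hexokinase transcripts, which serve the first step of glycolysis, Hk3 was the most abundant per kb. It encodes the isozyme typical of myeloid cells. Hk3 had 7747, 8839 and 10388 normalised reads (lowest, median, highest) in Chow_EmKCs, 6308, 7121 and 8370 in MCD_EmKCs and 4494, 5547 and 6640 in MCD_MoKCs. The highest MCD_MoKCs library lay below the lowest Chow_EmKCs library, while MCD_EmKCs overlapped with both. Against Chow_EmKCs the log2 fold change in MCD_MoKCs was -0.74 (SE 0.12, limma adjusted p = 6.33e-05), and all 19 fits that left out 1 library kept that call. Among library numbers from 37 it was -0.58 and missed the threshold (limma adjusted p = 0.0553). The smaller difference from MCD_EmKCs (-0.38, SE 0.12, limma adjusted p = 0.0422) was lost without any 1 of MCD_EmKCs 1, 2, 4 or 6 or MCD_MoKCs 1, 2, 3, 4 or 5 (highest adjusted p = 0.112) and without MCD_MoKCs 1 to 3 together (-0.34, adjusted p = 0.187). By library number this difference was -0.48 up to 33 (limma adjusted p = 0.0893) and only -0.13 from 37 (0.821). Per kb of exon, Hk3 made up 86.9% ± 2.16 (SD, n = 6), 85.1% ± 2.80 (n = 6) and 80.5% ± 2.85 (n = 7) of the 3 hexokinases in Chow_EmKCs, MCD_EmKCs and MCD_MoKCs. Hk2, the isozyme that HIF and insulin are known to raise, made up 6.72% ± 1.96, 8.18% ± 2.27 and 12.6% ± 3.45. Within MCD_MoKCs, Hk2 had 1426 to 1904 normalised reads in libraries 1 to 3 and 923.0 to 1295 in libraries 4 to 7. Its range was 747.2 to 1385 in Chow_EmKCs and 798.0 to 1532 in MCD_EmKCs. Hk1 was split the other way, at 571.8 to 957.3 and 1156 to 1496. Neither Hk1 nor Hk2 was called in any comparison.

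Gpi1, which turns glucose 6-phosphate into fructose 6-phosphate, was higher in monocyte-derived cells. It had 1749, 1968 and 2118 normalised reads (lowest, median, highest) in Chow_EmKCs, 1371, 1817 and 2226 in MCD_EmKCs and 2508, 2796 and 3169 in MCD_MoKCs. No MCD_MoKCs library overlapped with either other group. It differed by 0.67 on the log2 scale from MCD_EmKCs (SE 0.14, limma adjusted p = 0.00149) and by 0.52 from Chow_EmKCs (SE 0.14, limma adjusted p = 0.00875), and every fit without 1 library kept both calls. Among library numbers from 37 the first call was lost (0.62, limma adjusted p = 0.180). The second was lost in both sets, at 0.48 up to 33 (limma adjusted p = 0.172) and 0.58 from 37 (0.1485). Of the Gpi1 windows of 50 bases, 25.3% also occur in transcripts of other genes, mainly the pseudogene Gm1840, whose row had means of 264.9 ± 63.9, 272.4 ± 71.0 and 364.8 ± 131.3. Among the phosphofructokinases Pfkl, Pfkp and Pfkm, which make the committed step, limma called none over all libraries. Per kb of union exon, Pfkl made up 60.9% ± 8.18, 61.6% ± 6.24 and 60.4% ± 4.90 of their summed level in Chow_EmKCs, MCD_EmKCs and MCD_MoKCs. These shares rest on the length used and do not show which of Pfkl and Pfkp is the more abundant. Union exon length was 6675 bases for Pfkl and 13401 for Pfkp, while their longest coding transcripts had 3730 and 4145. Pfkp had log2 fold changes of 0.48 (SE 0.19, adjusted p = 0.121) and 0.51 (SE 0.19, adjusted p = 0.0722) in MCD_MoKCs against MCD_EmKCs and Chow_EmKCs. It passed the threshold in both without MCD_MoKCs 1 (adjusted p = 0.0351 and 0.0161), and against Chow_EmKCs without Chow_EmKCs 3 (0.0497) or without MCD_MoKCs 1 to 3 (log2 fold change 0.67, adjusted p = 0.0317). DESeq2 also called Pfkp higher against Chow_EmKCs (0.55, adjusted p = 0.0391). Pfkfb3 and Pfkfb4, whose products set the level of the phosphofructokinase activator fructose 2,6-bisphosphate, were not called. Pfkfb4 passed in MCD_MoKCs against MCD_EmKCs without MCD_EmKCs 1 (adjusted p = 0.0352).

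Aldoa was the most abundant enzyme of the chain per kb of exon in each group, at 2670 ± 507 normalised reads per kb (SD) over the 6 Chow_EmKCs, 2696 ± 452 over the 6 MCD_EmKCs and 3314 ± 529 over the 7 MCD_MoKCs libraries. In Chow_EmKCs it did not differ from Hk3 (2479 ± 270 per kb) beyond the spread, but this rests on the length used. Union exon lengths were 2911 bases for Aldoa and 3682 for Hk3, while their longest coding transcripts had 1549 and 3219. Tpi1, triose phosphate isomerase, stood at 588.6 ± 154, 581.9 ± 60.5 and 682.7 ± 77.4 per kb. Neither gene was called, and the log2 fold changes in MCD_MoKCs against MCD_EmKCs were 0.30 (SE 0.14, limma adjusted p = 0.202) for Aldoa and 0.23 (SE 0.17, adjusted p = 0.446) for Tpi1.

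Eno1, the enolase that makes phosphoenolpyruvate, had 1869, 2563 and 2908 normalised reads (lowest, median, highest) in Chow_EmKCs, 1540, 1784 and 2736 in MCD_EmKCs and 2267, 3046 and 3384 in MCD_MoKCs. The ranges overlapped, and MCD_EmKCs had the lowest median. The call in MCD_MoKCs against MCD_EmKCs (log2 fold change 0.60, SE 0.16, limma adjusted p = 0.0133) was kept in every fit without 1 library, while the difference from Chow_EmKCs (0.23, SE 0.16, adjusted p = 0.375) missed the threshold. In each library-number set alone the difference from MCD_EmKCs was not called, at 0.54 up to 33 (limma adjusted p = 0.178) and 0.69 from 37 (0.172). Of the 50-base windows in the longest Eno1 transcript, 72.2% also occur in transcripts of other genes, mainly Eno1b. The row for Eno1b had means of 733.3 ± 200.1, 668.5 ± 160.6 and 1018 ± 267.0 in Chow_EmKCs, MCD_EmKCs and MCD_MoKCs, so the split of reads between the rows is uncertain.

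Pkm makes pyruvate and is the last enzyme of the chain. It had 5568, 7285 and 8041 normalised reads (lowest, median, highest) in Chow_EmKCs, 7474, 7961 and 9555 in MCD_EmKCs and 10176, 12919 and 14730 in MCD_MoKCs. Every MCD_MoKCs library lay above every EmKCs library on either diet. The mean was 1.52 times that of MCD_EmKCs (log2 fold change 0.60, SE 0.12, limma adjusted p = 0.000843) and 1.75 times that of Chow_EmKCs (0.81, SE 0.12, adjusted p = 1.06e-05), and every fit without 1 library kept both calls. Without MCD_MoKCs 1 to 3 the log2 fold changes were 0.68 and 0.90. Among library numbers up to 33 the difference from MCD_EmKCs was 0.44 with an adjusted p of 0.116, and among numbers from 37 it was 0.86 with 0.0126. Other genes' transcripts, mostly pseudogenes, hold 34.4% of its 50-base windows. Gene rows do not separate the M1 and M2 splice forms of Pkm.

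**Figure D2:**
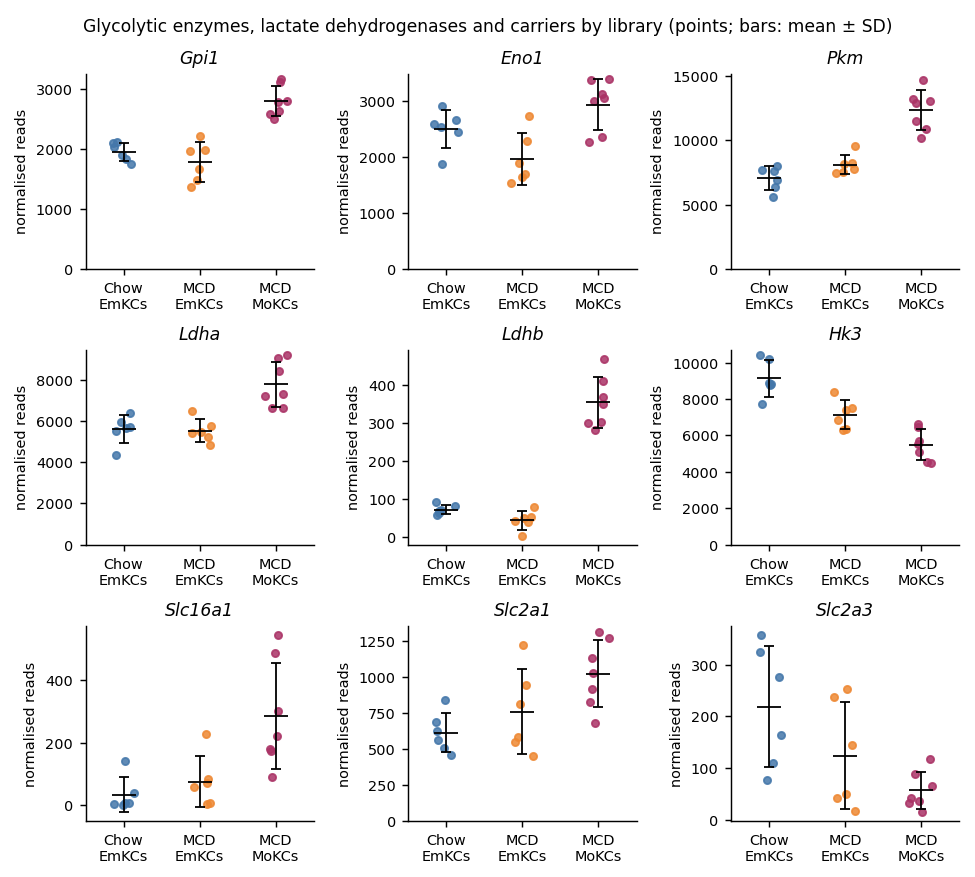
Normalised reads (vertical axes, linear) of 9 enzymes and carriers in each library, by group, with bars at the mean ± SD (n = 6, 6 and 7). All MCD_MoKCs points for Gpi1, Pkm, Ldha and Ldhb lie above all EmKCs points, Hk3 steps down across the groups, and Slc2a3 and Slc16a1 spread widely within groups.

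Gapdh, Pgk1 and Pgam1, the enzymes between triose phosphate isomerase and enolase, were listed far below their neighbours in the chain. Per kb of exon, Gapdh had 43.6 ± 23.8 normalised reads (SD, n = 6) in Chow_EmKCs, Pgk1 had 49.5 ± 15.7 and Pgam1 had 66.9 ± 24.7, against 588.6 ± 154 for Tpi1 before them and 464.6 ± 64.5 for Eno1 after them. Much of their sequence is shared: 82.5% of the 50-base windows of the longest Gapdh transcript, 68.0% of those of Pgk1 and 41.5% of those of Pgam1 also occur in transcripts of other genes. For Gapdh these were 222 genes, 215 of them annotated as pseudogenes. Of the 33 members, 20 shared at least 1 such window, 8 shared over 25% and 13 shared none. The levels and differences of these 3 genes are therefore uncertain, and how the authors' counting treated reads with several matches is not given in the sources used here. The call of Pgam1 against Chow_EmKCs (log2 fold change 0.95, SE 0.31, limma adjusted p = 0.0349) was lost without any 1 of Chow_EmKCs 1, 3, 5 or 6 or MCD_MoKCs 2, 5, 6 or 7 (highest adjusted p = 0.0922). Its values were 93.7, 113.2 and 226.4 normalised reads (lowest, median, highest) in Chow_EmKCs, 141.0, 183.0 and 222.0 in MCD_EmKCs and 152.9, 242.1 and 469.3 in MCD_MoKCs, with overlap in every pair. The pseudogene Pgam1-ps2, which holds all of the shared Pgam1 windows, had means of 55.0 ± 10.7, 54.5 ± 27.4 and 156.5 ± 51.1 in Chow_EmKCs, MCD_EmKCs and MCD_MoKCs.

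**Figure D3:**
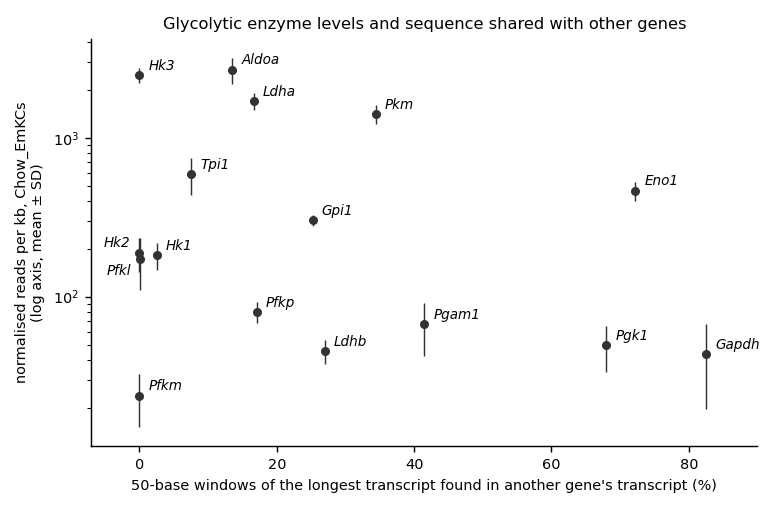
Level of 16 glycolytic and lactate dehydrogenase genes in Chow_EmKCs (normalised reads per kb of exon, mean ± SD, n = 6, log axis) against the percent of 50-base windows of the longest transcript that also occur in another gene's transcript. Gapdh, at 82.5%, and Pgk1, at 68.0%, are listed low, while Eno1, at 72.2%, is not.

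Both lactate dehydrogenase genes were higher in monocyte-derived cells. Ldha makes the M subunit, which favours lactate, and had 6632, 7315 and 9199 normalised reads (lowest, median, highest) in MCD_MoKCs, above the highest value of Chow_EmKCs (6389) and of MCD_EmKCs (6497). Ldha was higher by 0.48 on the log2 scale than in MCD_EmKCs (SE 0.12, limma adjusted p = 0.00911) and by 0.47 than in Chow_EmKCs (SE 0.12, limma adjusted p = 0.00681). Within MCD_MoKCs, libraries 1 to 3 (8418 to 9199) stood above libraries 4 to 7 (6632 to 7315). All 5 libraries of MCD_MoKCs 1 to 5 belong to the numbers up to 33, where Ldha differed from MCD_EmKCs by 0.54 (adjusted p = 0.0741), and among numbers from 37 it differed by 0.34 (adjusted p = 0.452). Without libraries 1 to 3 both calls were lost, at 0.33 (adjusted p = 0.166) and 0.32 (adjusted p = 0.125).

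Ldhb makes the H subunit, found mainly in tissues that use lactate. It had 57.3, 68.9 and 92.0 normalised reads (lowest, median, highest) in Chow_EmKCs, 2.59, 44.6 and 79.1 in MCD_EmKCs and 280.1, 349.2 and 468.8 in MCD_MoKCs. The lowest MCD_MoKCs library was above the highest EmKCs library on either diet. The mean was 8.07 times that of MCD_EmKCs (log2 fold change 3.40, SE 0.51, limma adjusted p = 3.42e-05) and 4.95 times that of Chow_EmKCs (2.29, SE 0.51, adjusted p = 0.00199). Both calls stood in all 19 fits that left out 1 library, with log2 fold changes of 2.77 to 3.66 and 2.22 to 2.36. Among library numbers up to 33 the values were 3.80 (adjusted p = 0.00677) and 2.23 (adjusted p = 0.09995), and among numbers from 37 they were 3.03 (0.00981) and 2.37 (0.0240). Leaving out MCD_MoKCs 1 to 3 gave 3.30 (adjusted p = 0.00169) and 2.18 (adjusted p = 0.0241).

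Per kb of exon, Ldhb made up 2.67% ± 0.663 (SD) of both subunit genes over the 6 Chow_EmKCs, 1.62% ± 0.835 over the 6 MCD_EmKCs and 8.81% ± 1.46 over the 7 MCD_MoKCs libraries. The lowest MCD_MoKCs share was 6.55% and the highest EmKCs share was 3.72%. Of the Ldhb windows, 27.0% also occur in the pseudogene Gm5514, whose row had means of 12.5 ± 17.2, 3.88 ± 5.68 and 32.1 ± 11.2 in Chow_EmKCs, MCD_EmKCs and MCD_MoKCs. Other cell types moved beside Ldhb. The summed level of 10 T and NK cell markers was 51.5 to 103.2 in Chow_EmKCs, 12.9 to 171.4 in MCD_EmKCs and 330.8 to 851.4 in MCD_MoKCs, with 4 of the 8 tested markers higher against MCD_EmKCs and 4 against Chow_EmKCs. The 7 dendritic cell markers summed to 294.6 to 763.2, 218.2 to 1045 and 803.7 to 2158. The part of these cells, or of monocyte RNA, in the Ldhb result was not tested. Pdk1, a kinase that inhibits pyruvate dehydrogenase, was not called in any comparison. It stood at 0.32 (log2, SE 0.40) for diet, -0.19 (SE 0.38) for MCD_MoKCs against MCD_EmKCs and 0.13 (SE 0.38) for MCD_MoKCs against Chow_EmKCs.

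**Figure D4:**
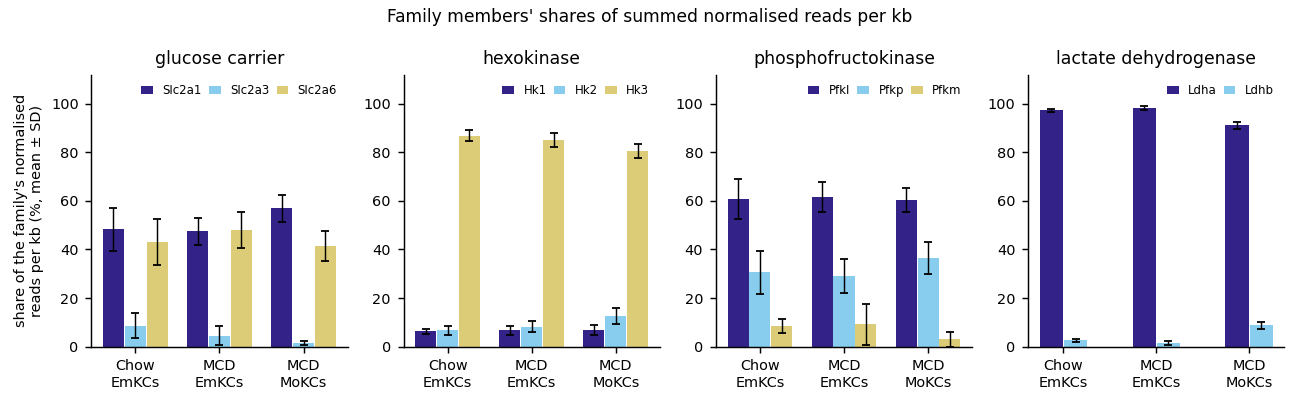
Share (percent, mean ± SD over 6, 6 and 7 libraries) of each gene in the summed normalised reads per kb of its family, for glucose carriers, hexokinases, phosphofructokinases and lactate dehydrogenases. Hk3 and Ldha dominate in all 3 groups, and the Ldhb share is 8.81% in MCD_MoKCs against 2.67% and 1.62% in the EmKCs groups.

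As a whole, the 14 glycolytic enzymes took 0.197% ± 0.0103 of reads (SD) over the 6 Chow_EmKCs, 0.177% ± 0.0159 over the 6 MCD_EmKCs and 0.222% ± 0.0274 over the 7 MCD_MoKCs libraries. The ranges overlapped, at 0.187% to 0.212%, 0.157% to 0.192% and 0.170% to 0.259%.

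In the oxygen-sensing group, Hif1a, the regulated subunit of HIF-1, had 416.4, 1170 and 1376 normalised reads (lowest, median, highest) in Chow_EmKCs, 704.2, 1400 and 1919 in MCD_EmKCs and 615.3, 839.2 and 1385 in MCD_MoKCs. It was not called in any comparison. The antisense gene Gm15283 overlaps Hif1a and had a similar mean over all libraries (1015, against 1118 for Hif1a), and whether the counting used strand is not given in the sources used here. HIF-1 is regulated mainly through the stability of its protein, which these data do not measure.

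Egln1 encodes PHD2, the main prolyl hydroxylase that marks HIF for destruction, and was the most uneven abundant member. Values ran from 99.3 in Chow_EmKCs 2 to 16176 in MCD_EmKCs 1, with 9274 in MCD_EmKCs 2, while the other 4 MCD_EmKCs libraries held 874.1 to 2529. MCD_MoKCs 1 to 3 had 227.7 to 873.0 and MCD_MoKCs 4 to 7 had 1776 to 3657, without overlap. None of its 50-base windows occurs in another gene's transcript. No comparison called it (log2 fold changes 1.52, SE 0.93, for diet and -1.35, SE 0.89, for MCD_MoKCs against MCD_EmKCs). Egln3, the prolyl hydroxylase that HIF itself raises, was near absent: 4 of 6 Chow_EmKCs, 5 of 6 MCD_EmKCs and 3 of 7 MCD_MoKCs libraries were listed at 0, and the highest value was 143.6 in MCD_MoKCs 5. It was not tested, and no fold is given.

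Among the 6 HIF targets in the member list, Adm had the largest log2 difference between MCD_MoKCs and MCD_EmKCs. It encodes adrenomedullin, a secreted vasodilator peptide, and its promoter window is printed above. Adm had 174.0, 353.9 and 379.1 normalised reads (lowest, median, highest) in Chow_EmKCs, 285.4, 429.7 and 642.4 in MCD_EmKCs and 2.56, 55.1 and 89.2 in MCD_MoKCs. Every MCD_MoKCs library lay below every EmKCs library, and the EmKCs groups overlapped with each other. Its mean was 8.50 times as high in MCD_EmKCs as in MCD_MoKCs (log2 fold change -3.46, SE 0.53, limma adjusted p = 4.62e-05) and 5.62 times as high in Chow_EmKCs (-2.86, SE 0.53, adjusted p = 0.000286). All fits without 1 library kept both calls, with log2 fold changes of -3.65 to -2.88 and -3.05 to -2.27. Within library numbers up to 33 the values were -3.78 and -3.38, and within numbers from 37 they were -2.82 and -2.01, all past the threshold. None of the windows of Adm is shared with another gene. Of 10 sinusoidal endothelial markers, 3 (Stab2, Cdh5 and Pecam1) were lower and 4 higher in MCD_MoKCs against MCD_EmKCs. Against Chow_EmKCs the same 3 were lower and 6 were higher. The part of endothelial RNA in the Adm difference was not tested.

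P4ha1 encodes the catalytic subunit of collagen prolyl 4-hydroxylase. It had 1449, 2185 and 2634 normalised reads (lowest, median, highest) in Chow_EmKCs, 1379, 1954 and 2384 in MCD_EmKCs and 954.1, 1405 and 1777 in MCD_MoKCs, and the groups overlapped. The fall by 0.59 on the log2 scale against Chow_EmKCs (SE 0.19, limma adjusted p = 0.0306) was lost without any 1 of Chow_EmKCs 1, 2, 4 or 6 or MCD_MoKCs 2, 3 or 5 (highest adjusted p = 0.0826). It was also lost without MCD_MoKCs 1 to 3 together (-0.46, limma adjusted p = 0.1715). By library number it was -0.78 up to 33 (limma adjusted p = 0.0564) and only -0.18 from 37 (0.7745). Against MCD_EmKCs the difference over all libraries was -0.51 (SE 0.19, adjusted p = 0.0900). Ndrg1, a stress-responsive gene of cell differentiation, had 0, 29.9 and 126.0 reads in Chow_EmKCs, 16.8, 59.0 and 102.8 in MCD_EmKCs and 23.4, 227.7 and 289.1 in MCD_MoKCs. Of the MCD_MoKCs libraries, 4 were above every EmKCs library and 3 were within their range. The rise of 2.88 (SE 0.89, limma adjusted p = 0.0241) against Chow_EmKCs was lost without any 1 of Chow_EmKCs 4 or 5 or MCD_MoKCs 4, 5 or 7 (highest adjusted p = 0.0798), and edgeR gave 2.09 with an adjusted p of 0.102. Bnip3 and Bnip3l, receptors for mitophagy, and Ankrd37, a small ankyrin repeat gene, were not called in any comparison.

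**Figure D5:**
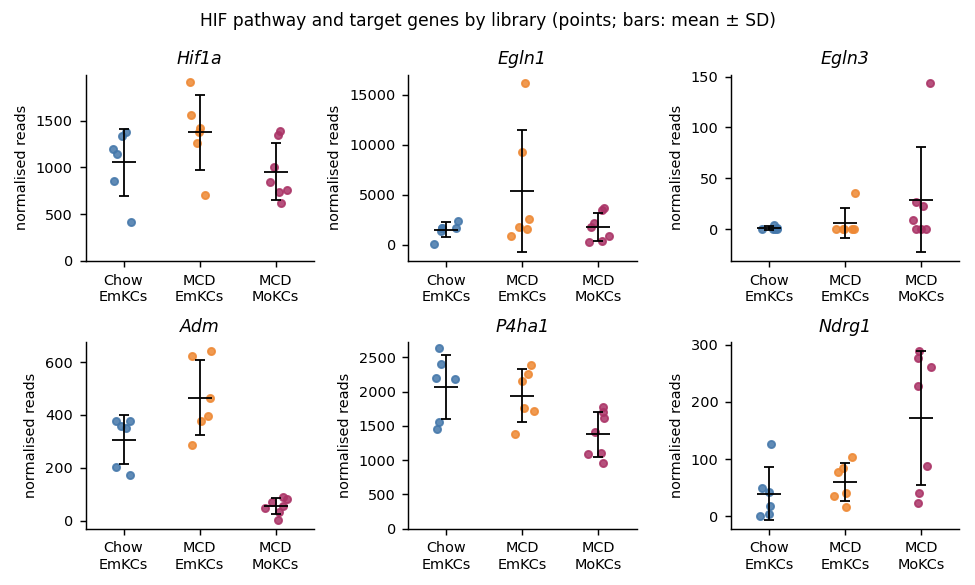
Normalised reads (vertical axes, linear) of 6 HIF pathway and target genes in each library, by group, with bars at the mean ± SD. Adm is low in all 7 MCD_MoKCs libraries, Egln1 is carried to 16176 and 9274 in 2 MCD_EmKCs libraries, and Egln3 is at or near 0 in most libraries.

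A wider list of the same pathways, chosen by function, held 103 tested genes of 117 in the table. For diet in EmKCs, 8 were higher and 3 lower, where 2.50% of all genes were higher and 1.58% lower. Of 27 tested HIF targets outside the members, 6 were higher and 0 lower. They included Vegfa, the endothelial growth factor, at 54.3, 178.6 and 488.3 normalised reads (lowest, median, highest) in MCD_EmKCs against 3.96, 37.9 and 57.2 in Chow_EmKCs (log2 fold change 2.75, SE 0.63, limma adjusted p = 0.00986). Bhlhe40, a transcriptional repressor, was higher by 1.39 (SE 0.20, adjusted p = 5.12e-05), and Angptl4, a lipoprotein lipase inhibitor, by 1.88 (SE 0.33, adjusted p = 0.000701). These genes have other inducers too, and 7 of the 12 tested genes of the isolation response list were also higher in MCD_EmKCs, where that list summed to 566538 to 802637 against 391692 to 556551 in Chow_EmKCs. The part of isolation in these differences was not tested.

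Among the 11 tested glucose sensors and drivers, Txnip, which restrains glucose uptake, fell by 0.96 (SE 0.17, limma adjusted p = 0.000570) with the diet, and Myc, a driver of glycolytic genes, rose by 1.03 (SE 0.22, adjusted p = 0.00578). Txnip had 5568, 6723 and 9770 normalised reads (lowest, median, highest) in Chow_EmKCs, 2939, 3863 and 4214 in MCD_EmKCs and 1531, 1929 and 2737 in MCD_MoKCs, and no 2 groups overlapped. Pygl, a glycogen phosphorylase, fell by 0.78 with the diet (SE 0.18, adjusted p = 0.0118). Hepatocytes also express Pygl, and 8 of 12 hepatocyte markers fell in the same comparison while 0 rose. The part of hepatocyte RNA in the Pygl difference was not tested.

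In MCD_MoKCs against MCD_EmKCs, 8 of the 103 genes of the wider list were higher and 9 lower, beside 5.64% and 4.90% of all genes. Of the 27 HIF targets among them, 5 were higher and 5 lower. Vegfa (3.41, SE 0.60, limma adjusted p = 0.000328) and Cxcr4, a chemokine receptor (1.43, SE 0.30, adjusted p = 0.00167), were higher. Plod1, a collagen lysyl hydroxylase (-0.96, SE 0.13, adjusted p = 9.62e-06), and Hmox1, which degrades haem (-0.76, SE 0.14, adjusted p = 0.000354), were lower. Adpgk, an ADP-dependent glucokinase that opens glycolysis beside the hexokinases, had 2389, 2927 and 4027 normalised reads in MCD_EmKCs and 631.8, 1509 and 1732 in MCD_MoKCs, without overlap (-1.18, SE 0.19, adjusted p = 9.11e-05). Txnip was lower too (-0.87, SE 0.16, adjusted p = 0.000397). In the pentose phosphate pathway, which branches from glucose 6-phosphate, 2 of 8 genes were higher, Pgd (0.45, SE 0.14, adjusted p = 0.0300) and Taldo1 (0.59, SE 0.15, adjusted p = 0.00818), and 0 were lower. These last 2 were named after their values were seen.

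Against Chow_EmKCs, MCD_MoKCs had 14 of the 103 genes of the wider list higher and 10 lower, beside 8.68% and 8.08% of all genes. Among those with the smallest p were Txnip (-1.84, SE 0.16, limma adjusted p = 2.35e-09), Bhlhe40 (2.14, SE 0.19), Vegfa (6.17, SE 0.60), Pygl (-1.28, SE 0.18) and Bhlhe41, a repressor related to Bhlhe40 (6.61, SE 1.08). Vegfa stood at 849.8, 1611 and 3370 normalised reads (lowest, median, highest) in MCD_MoKCs, above every library of both EmKCs groups. In this comparison 11 of 12 hepatocyte markers were lower and 0 higher. Against MCD_EmKCs, where 0 of 12 hepatocyte markers were called, Pygl stood at -0.49 on the log2 scale (SE 0.18, limma adjusted p = 0.0774).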

How the data were processed

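Bulk RNA-seq of 19 sorted Kupffer cell libraries was used. The authors aligned reads with STAR to mm10 and normalised with DESeq2, per the submitters' processing notes, which give no versions. Their deposited table holds a normalised signal, gene read counts divided by 1 size factor per library. Whole reads were recovered from its steps in all 19 libraries (lowest share of values within 0.001 of a whole read, 100%), although the size factor of Chow_EmKCs 1 is so near 1 that its column cannot be told from near-raw values. Total reads were 11642240 to 30983487.

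A gene was tested if 6 or more libraries reached 10 normalised reads, which left 14875. They were fitted in limma 3.58.1, under R 4.3.3, as log2 of the value plus a pseudocount of 1. Variances were trended and robust, each group had its own mean, and p-values were adjusted over all of these genes by the Benjamini-Hochberg method. Fold changes are on that scale, and for genes with values near 0 they depend on the pseudocount and can lie above or below the ratio of means. Tests are two-sided. edgeR 4.0.16 and DESeq2 1.42.0 were run on the recovered reads as alternatives, and the scripts were tested on simulated data. Other alternatives were the pseudocount (0.5, 5), the filter (none, 50), TMM scaling, only the groups compared, a replicate block, library-number sets and each library left out. Symbols matched 29062 identifiers through GENCODE vM21, and the other 4857 were tested without names. Levels per kb use union exon length. It can exceed the longest transcript by an unequal factor among genes, so levels and shares between genes depend on it. RefSeq promoters (GRCm38.p6) were searched for ACGTG and GCGTG. The member list and the other gene lists were chosen with earlier results of these data known. Members past the threshold in any comparison are given in full, other members by level or count, and of the wider lists the 6 genes with the smallest adjusted p past the threshold per comparison, except 1 gene that is not reported here.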

Additional observations from a re-analysis of the deposited data

Results flagged for a closer look

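A single library stood apart from the rest of its group (Dixon's test at the 95% level) in 5 of 96 sets of member and group, and chance alone flags about 1 in 20 such sets. Slc16a1 was highest in Chow_EmKCs 3, at 141.7 normalised reads with 38.7 in the next library, and in MCD_EmKCs 3, at 226.7 with 82.5 in the next. Pkm was highest in MCD_EmKCs 3, at 9555 with 8214 in the next. Pfkm was lowest in Chow_EmKCs 1, at 23.7 with 78.2 in the next, and Ankrd37 was highest in MCD_EmKCs 1, at 38.8 with 16.1 in the next.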

How the results depend on the processing

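No log2 fold change of a called member changed sign under any of the alternatives run. Across members, comparisons and alternatives, 2943 values kept their side of the threshold, 78 called values lost it and 16 gained it. Among library numbers up to 33, limma called 179 genes for diet, 870 genes and 3 members in MCD_MoKCs against MCD_EmKCs, and 1257 genes and 3 members in MCD_MoKCs against Chow_EmKCs. Among numbers from 37 the counts were 263 genes, 565 genes with 4 members, and 1288 genes with 5 members. Without MCD_MoKCs 1 to 3, MCD_MoKCs against MCD_EmKCs gave 1010 genes. Leaving out each library in turn gave 468 to 620 genes and 0 members for diet, 1288 to 1596 genes and 6 to 8 members in MCD_MoKCs against MCD_EmKCs, and 2193 to 2590 genes and 8 to 12 members in MCD_MoKCs against Chow_EmKCs. Same-numbered libraries did not deviate together (correlations of -0.0743 to 0.0759). That gives no sign of pairing by number, but it cannot show whether such libraries shared a mouse. The fit with the replicate block also drops MCD_MoKCs 7, which has no partner, and its counts were 608, 1658 and 2474 genes and 0, 9 and 10 members. It added Hif1a (-0.62, adjusted p = 0.0469) and P4ha1 (-0.56, adjusted p = 0.0288) in MCD_MoKCs against MCD_EmKCs, neither of them called by leaving out that library alone. In MCD_MoKCs against Chow_EmKCs it added Hk1 (adjusted p = 0.0479) and lost Slc2a1, Pgam1 and Ndrg1, as did leaving out MCD_MoKCs 7 alone, with the same log2 fold changes.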
